A study of Mus musculus with 12 samples.

Results

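Genes of the extracellular matrix, its integrin receptors, the metalloproteinases that cut it and the insulin-like growth factor (IGF) system were examined in mouse cerebellum. Members were taken by name: every gene of the deposited table whose symbol starts with Col and a digit, Lama, Lamb, Lamc, Itga, Itgb, Adam, Timp, Igf, Sparc, Cntn or Hapln, together with Spp1, Bcan, Ncan, Vcan, Tnr, Tnc and Dcn. This gave 43 of 7667 genes. They were 8 ADAM and ADAMTS genes, 8 names of the IGF system, 7 names starting with Itga or Itgb, 7 contactin and contactin-associated genes, 4 perineuronal matrix genes, 3 tissue inhibitors of metalloproteinases, 2 names starting with Col, and Sparc, Sparcl1, Spp1 and Dcn. Symbols match some genes of other function: Col4a3bp encodes a ceramide transfer protein and no collagen, Itgb1bp1 a cytoplasmic protein that binds an integrin tail, and Igflr1 a receptor that belongs to the tumour necrosis factor receptor family. Col18a1 was thus the only collagen. No laminin and no fibril-forming collagen was among the rows analysed here, and Ncan, Vcan and Tnc were not analysed here.

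The mice were fxSCA7 92Q animals, which model spinocerebellar ataxia type 7 and carry an allele of 92 CAG repeats, and wild-type littermates, each at 12 and at 29 weeks of age. Every one of the 4 conditions had 3 libraries and every library pooled the cerebella of 3 mice. Neither the promoter of the expanded allele nor the cells that express it could be read from the labels. The table analysed holds 1 value per gene and condition, a normalized score written as a whole number, so the spread between libraries is hidden, no difference below has a replicate check and no test was made. Where a gene is called higher or lower, this compares single deposited scores.

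In the central nervous system the matrix takes different forms. Around many neurons it is a net of hyaluronan, held by link proteins (Hapln genes), chondroitin sulphate proteoglycans such as brevican (Bcan) and the crosslinking glycoprotein tenascin-R (Tnr), and in the cerebellum such nets are best known on neurons of the deep nuclei. Collagens, decorin and other fibrous components belong mostly to the meninges and to the basement membranes of vessels. IGF2 is secreted in the adult brain mainly by choroid plexus and meninges, and a family of IGF binding proteins controls how much ligand reaches the receptor IGF1R. Integrins are pairs of an alpha and a beta chain that link cells to this matrix.

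All 4 columns had the same median of 22 and their sums lay between 322446 and 333581. Read depth is unknown. Because scores are whole numbers, a log2 ratio is known only to within 0.13 near a score of 10 and 0.06 near 22. Every row of the table reaches 10 in 1 or more conditions. Of the members 37 were at 10 or more in all 4 conditions. Cntn4 reached 10 in wild type at 29 weeks alone and Itgav in 92Q at 29 weeks alone, so these genes had to be highest there. All 15 Purkinje cell markers and all 13 granule neuron markers looked for had a row, so the labelled tissue was matched by its main neurons. The pools differed in sex-linked signal: Xist was 66 in wild type and 30 in 92Q at 12 weeks and 63 and 25 at 29 weeks, and Eif2s3y, a Y-linked gene, was listed at 0 and 12, then 6 and 15. The sex of the pooled mice and their genotype cannot be told apart. Eif2s3y was 0 and 6 in wild type at 12 and 29 weeks and Ddx3y, also Y-linked, 0 and 5, where Xist was 66 and 63. Sex and age in wild type therefore cannot be fully told apart either. Scores are compared below between conditions, within a gene or within the sum of a list. Such sums give most weight to genes of high score. Genes are ranked by score only to choose which to print, since it is not known whether the score is corrected for transcript length.

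**Figure D1:**
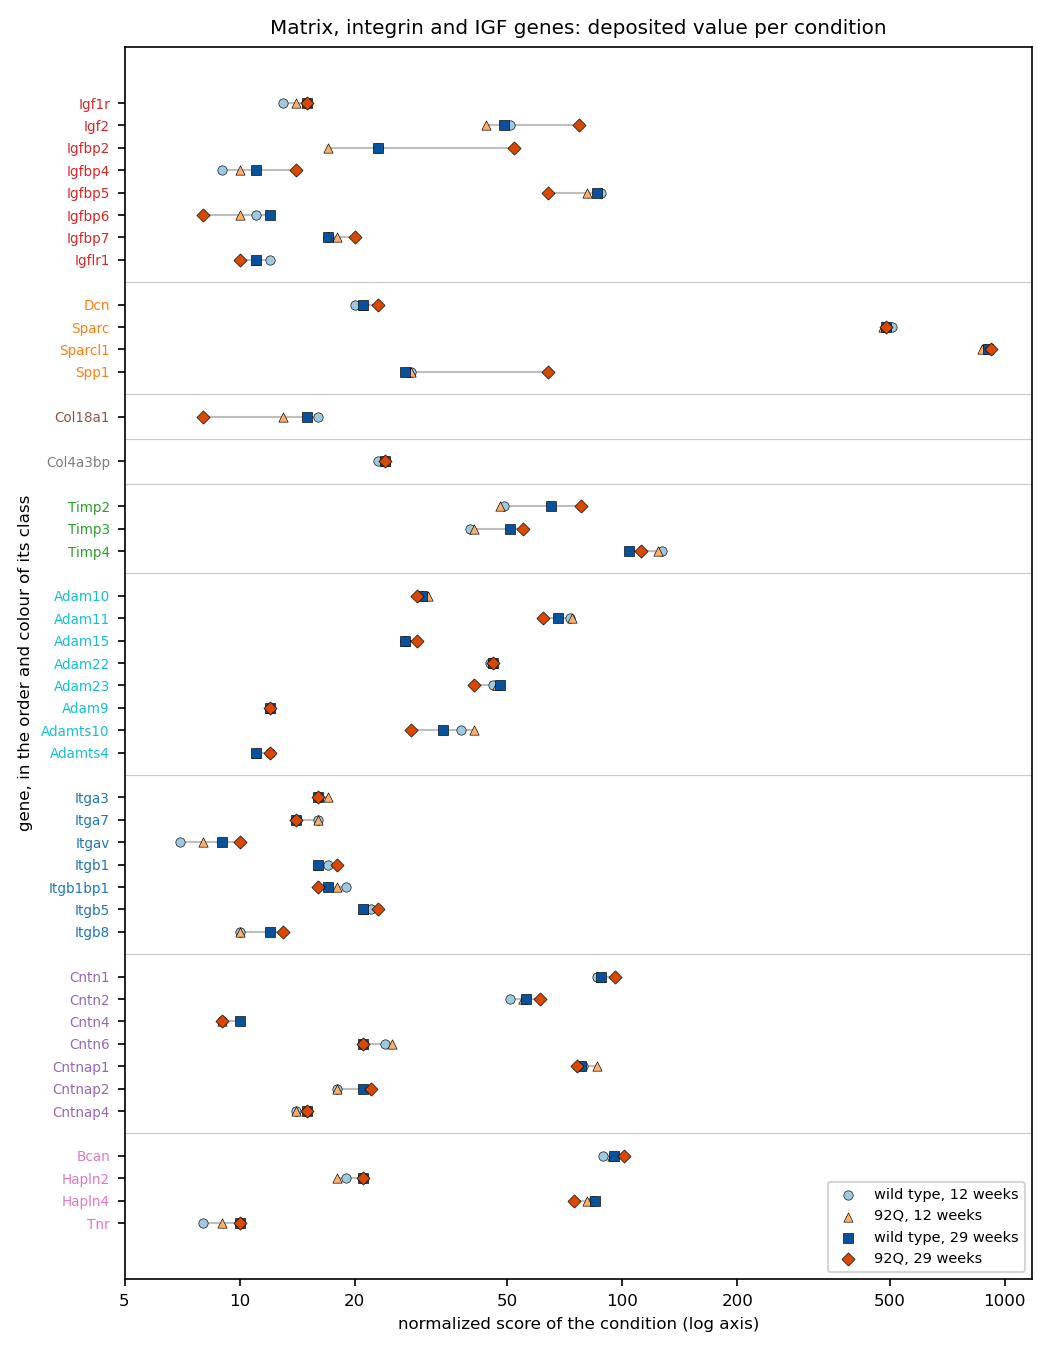
Deposited score of each of the 43 genes in the 4 conditions, on a log axis, with genes grouped and coloured by class and a grey line from the lowest to the highest condition; each point is the authors' single value and has no error bar, and equal values hide each other. Most lines are short, while Igf2, Igfbp2, Spp1, Col18a1 and Timp2 have long ones, and for all 5 the 92Q value at 29 weeks stands at an end of the line.

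Whether the expanded repeat goes with altered matrix expression was first asked in 29-week animals. Igfbp2, Igf2 and Spp1 were higher in 92Q and Col18a1 was lower, each by at least 1.5-fold. Thus 3 of 43 members were at least 1.5-fold higher, against 0.535% of the 7666 genes compared, and 1 was at least 1.5-fold lower, against 0.730%. The median log2 ratio over the members was 0.00, as it was over all genes compared, and 29 of the 43, or 67.4%, lay within 1.1-fold, against 77.6% of all genes. As in any bulk tissue, a higher or lower score of a gene cannot tell more or fewer cells of a type from more or less RNA per cell.

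Igfbp2, which encodes a secreted binding protein for IGF1 and IGF2, had a score of 23 in wild type and 17 in 92Q at 12 weeks. At 29 weeks it was 23 in wild type and 52 in 92Q. The wild-type value was the same at both ages, and the 92Q value was the lowest of the 4 at 12 weeks and the highest at 29 weeks. The log2 ratio of 92Q to wild type at 29 weeks was 1.14, or 2.21-fold (upper end of the rounding range 1.19). It was the 21st highest of 7666 ratios. Igfbp2 spans positions 72824503 to 72852474 of chromosome 1, on the plus strand (mm10, GENCODE M21).

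Igf2, the growth factor itself and an imprinted gene, had a score of 51 in wild type and 44 in 92Q at 12 weeks. At 29 weeks the values were 49 and 77. The 3 other conditions lay between 44 and 51, so that 92Q at 29 weeks was above all of them. The log2 ratio at 29 weeks was 0.64 (1.56-fold, rounding range 0.62 to 0.67).

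Spp1 encodes osteopontin, a secreted phosphoprotein that binds integrins and CD44 and that activated microglia and macrophages are known to make. Its score was 28 in both genotypes at 12 weeks and 27 in wild type at 29 weeks. In 92Q at 29 weeks it was 64. The 3 other conditions were within 1 unit of each other. The log2 ratio at 29 weeks was 1.22 (2.32-fold, rounding range 1.18 to 1.25), the highest among the members and the 18th highest of all ratios. Spp1 lies on chromosome 5 from 104435118 to 104441050, plus strand.

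Col18a1 encodes the collagen of basement membranes whose C-terminal fragment is endostatin. Scores were 16 in wild type and 13 in 92Q at 12 weeks, and 15 and 8 at 29 weeks. Both 92Q values were below both wild-type values. The log2 ratio at 29 weeks was -0.83 (rounding range -0.96 to -0.71), the 18th lowest of all genes compared, and at 12 weeks it was -0.28. Col18a1 lies on chromosome 10 from 77052178 to 77166548, minus strand. It was the only member among the 99 genes of the authors' shorter deposited table, a list labelled as differential expression and chosen on these samples. Igfbp2, Spp1 and Igf2 were not on that list.

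The sequences before the transcription start are shown for Igfbp2, Spp1 and Col18a1, the members with the largest differences at 29 weeks. Each is the 250 bases upstream of the first start listed for the gene in RefSeq (GRCm38.p6, the assembly of mm10), written 5′ to 3′ on the gene's strand. Capitals mark matches on either strand to 5 motifs that were searched. These were the TATA box, spelled TATAAA, the CCAAT box, spelled as its name, the GC box, spelled GGGCGG, the AP-1 motif, spelled TGANTCA, and the E-box, spelled CACGTG. Igfbp2 is from chr1:72824230-72824479 (plus strand), Spp1 from chr5:104434861-104435110 (plus strand) and Col18a1 from chr10:77166531-77166780 (minus strand).
Igfbp2: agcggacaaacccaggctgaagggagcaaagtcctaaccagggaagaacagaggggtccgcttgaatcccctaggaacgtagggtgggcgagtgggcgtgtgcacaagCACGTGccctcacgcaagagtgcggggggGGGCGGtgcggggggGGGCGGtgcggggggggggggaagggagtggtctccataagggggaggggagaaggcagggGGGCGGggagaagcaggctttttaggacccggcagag
Spp1: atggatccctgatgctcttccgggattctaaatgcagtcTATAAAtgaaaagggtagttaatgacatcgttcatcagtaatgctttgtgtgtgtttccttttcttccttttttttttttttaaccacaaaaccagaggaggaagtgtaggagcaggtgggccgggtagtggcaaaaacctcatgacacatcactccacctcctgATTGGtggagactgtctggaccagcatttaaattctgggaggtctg
Col18a1: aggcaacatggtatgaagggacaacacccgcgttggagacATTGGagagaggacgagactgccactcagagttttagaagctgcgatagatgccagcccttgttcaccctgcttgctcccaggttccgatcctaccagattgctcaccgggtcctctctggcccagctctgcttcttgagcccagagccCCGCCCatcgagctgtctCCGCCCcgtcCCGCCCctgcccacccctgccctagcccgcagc
The Igfbp2 window held 3 GC boxes and 1 E-box, the Spp1 window 1 TATA box and 1 CCAAT box, and the Col18a1 window 1 CCAAT box and 3 GC boxes. None of the matches within a window overlapped. Igfbp2 and Spp1, the members with the highest ratios, shared none of these 5 in the windows shown. RefSeq windows were found for 32 of the 43 members, 43 windows in all. The GC box was in 37.2% of these and in 32.7% of all 32851 windows, the CCAAT box in 34.9% and 33.8%, the TATA box in 9.30% and 12.4%, the AP-1 motif in 4.65% and 6.75%, and the E-box in 4.65% and 6.02%. A match of letters is a description, not a binding site. Spp1, Igfbp2 and Col18a1 have further starts, and the score does not tell which was used.

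**Figure D2:**
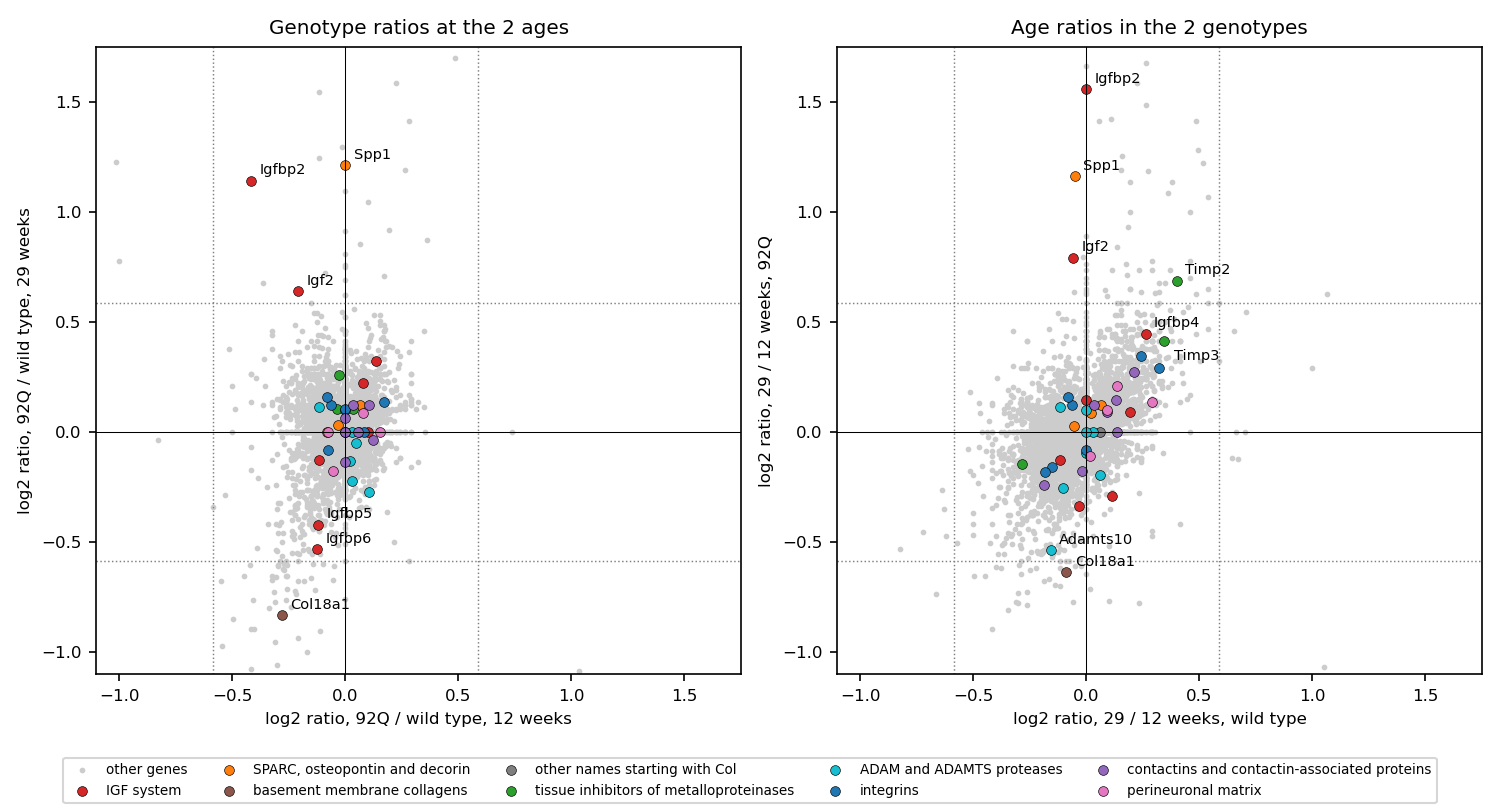
Log2 ratios of all genes (grey) and of the 43 members (coloured by class), at left 92Q against wild type at 12 weeks (x) and 29 weeks (y), at right 29 against 12 weeks in wild type (x) and in 92Q (y); each point is 1 gene, dotted lines mark 1.5-fold, and 14 genes at left and 17 at right, none of them members, lie outside the axes. At left Igfbp2 and Igf2 are left of 0 and above the upper dotted line, Spp1 is at 0 and above it, and Col18a1 is below the lower one; at right Timp2, Timp3 and Igfbp4 are above 0 on both axes.

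The remaining IGF genes went in both directions at 29 weeks. Igfbp5, another secreted IGF binding protein, had scores of 88 and 81 in wild type and 92Q at 12 weeks and of 86 and 64 at 29 weeks. Its 92Q value at 29 weeks was the lowest of the 4, with a log2 ratio of -0.42 (rounding range -0.44 to -0.40). Igfbp6, which prefers IGF2 over IGF1, was 11 and 10 at 12 weeks and 12 and 8 at 29 weeks (log2 ratio -0.53 at 29 weeks, rounding range -0.67 to -0.40). At a lower threshold of 1.3-fold, 3 members were lower at 29 weeks (Col18a1, Igfbp5 and Igfbp6), against 1.60% of all genes, and 3 were higher, against 1.38%.

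Igfbp2 and Igfbp5 are neighbours on chromosome 1, where Igfbp5 runs from 72857932 to 72874884 on the minus strand. The genes face each other tail to tail with 5457 bases between them. Their log2 ratios at 29 weeks had opposite signs, 1.14 and -0.42.

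Igfbp4 had scores of 9, 10, 11 and 14 in the order wild type and 92Q at 12 weeks, then wild type and 92Q at 29 weeks. Igfbp7, a binding protein found in vessel walls, had 17, 18, 17 and 20 in the same order. The log2 ratios at 29 weeks were 0.32 and 0.22. Igf1r, the receptor, had 13, 14, 15 and 15. The receptor's score was therefore equal in the genotypes at 29 weeks, where the ligand Igf2 differed. Igflr1, no part of the IGF pathway, had 12, 11, 11 and 10. Igfbp7 shares 85 exon bases with Polr2b on the other strand, and the counting is not known to use strand; Polr2b was 28 in both 29-week conditions. The ligand Igf1 was not among the rows analysed here. In the IGF and insulin signalling list 21 of 29 names had a row. Most act downstream of the receptor, but Insr, itself a receptor, and Htra1 do not. None reached 1.3-fold between the genotypes at either age, and the list's median log2 ratio was 0.00 at both. Of all genes, 1.38% were at least 1.3-fold higher and 1.60% lower in 92Q at 29 weeks. Irs2, the insulin receptor substrate, was 23 in wild type and 22 in 92Q at 29 weeks, and Akt1 was 68 and 73.

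Markers of several cell types differed between the conditions beside Igfbp2 and Igf2. Of 18 choroid plexus markers 9 had a row, and their summed score was 472 in wild type and 74 in 92Q at 12 weeks and 595 and 1744 at 29 weeks. Without Ttr, which holds most of that sum, it was 136, 68, 150 and 341. All 9 were higher in 92Q at 29 weeks, and at 12 weeks 6 of 7 compared were lower. Kcnj13, Clic6, Kl, Sostdc1, Ace and 1500015O10Rik reached 10 in 92Q at 29 weeks alone, so they had to be highest there to have a row. Kl and Sostdc1 were listed at 0 in 92Q at 12 weeks. Of 21 meningeal markers outside the rule 8 had a row. Their summed score was 1653 and 1341 at 12 weeks and 1454 and 1617 at 29 weeks, or 102, 82, 105 and 118 without Ptgds. At 12 weeks 7 of these 8 were lower in 92Q and none higher, and at 29 weeks 6 were higher and 1 lower. Slc13a4 and Pcolce likewise reached 10 in 92Q at 29 weeks alone. Fmod, a small collagen-binding proteoglycan of fibrous tissue, was 16, 13, 15 and 19, and Slc13a4, a sulphate transporter, 9, 6, 9 and 12. Oligodendrocyte markers (12 of 15 with a row) were lower in 92Q for 8 and higher for 2 at 12 weeks, and higher for 9 and lower for 3 at 29 weeks, with medians of -0.07 and 0.23 and sums of 4078, 3832, 4098 and 4386. Astrocyte and Bergmann glia markers (15 of 17) summed to 2517, 2500, 2385 and 2624, and at 29 weeks the 92Q score was the higher for 11 of 15 (median 0.10). The part of the tissue makeup of the pools in the Igfbp2 and Igf2 differences was not tested.

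Cell type markers differed beside Spp1 and Col18a1 too. Over all genes the shares higher and lower in 92Q were 32.1% and 36.7% at 12 weeks and 49.5% and 26.1% at 29 weeks. Of 19 microglia markers 14 had a row, with sums of 1287 and 1279 at 12 weeks and 1276 and 2010 at 29 weeks, or 182, 185, 214 and 458 without Apoe. All 14 were higher in 92Q at 29 weeks, with a median log2 ratio of 0.98, against 1.22 for Spp1. None of the 14 was listed at 0. Trem2, Cx3cr1, Cd68 and Lyz2 reached 10 in 92Q at 29 weeks alone, so they had to be highest there to have a row. The count and the median include these genes. Among the astrocyte markers Gfap was 88, 87, 95 and 235 and Serpina3n 3, 4, 4 and 21, so both were highest in 92Q at 29 weeks. Serpina3n had to be, since it reached 10 there alone. Other markers of that list were lower in 92Q than in wild type at 29 weeks. These were Gdf10 (130 in wild type and 106 in 92Q), Slc1a3 (361 and 323), Hopx (84 and 79) and Aldh1l1 (25 and 24). The 15 Purkinje cell markers summed to 7524 and 5897 at 12 weeks and to 6439 and 4147 at 29 weeks, none of them at 0. Of these 14 were lower in 92Q at both ages, with medians of -0.26 and -0.61, against -0.28 and -0.83 for Col18a1. Igfbp5 was lower than wild type at both ages as well (-0.12 and -0.42). Granule neuron markers were lower in 92Q at 29 weeks for 12 of 13 and equal for 1, with a median of -0.15, and at 12 weeks 9 were higher and 4 lower. The part of cell numbers in these differences was not tested. Endothelial markers (6 of 15 with a row) had sums of 68, 69, 67 and 71, and pericyte and smooth muscle markers (3 of 12) of 105, 109, 104 and 111. Cldn5, a tight junction gene of endothelium, was 16, 15, 11 and 13. The part of vascular cells in the Col18a1 difference was not tested.

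**Figure D3:**
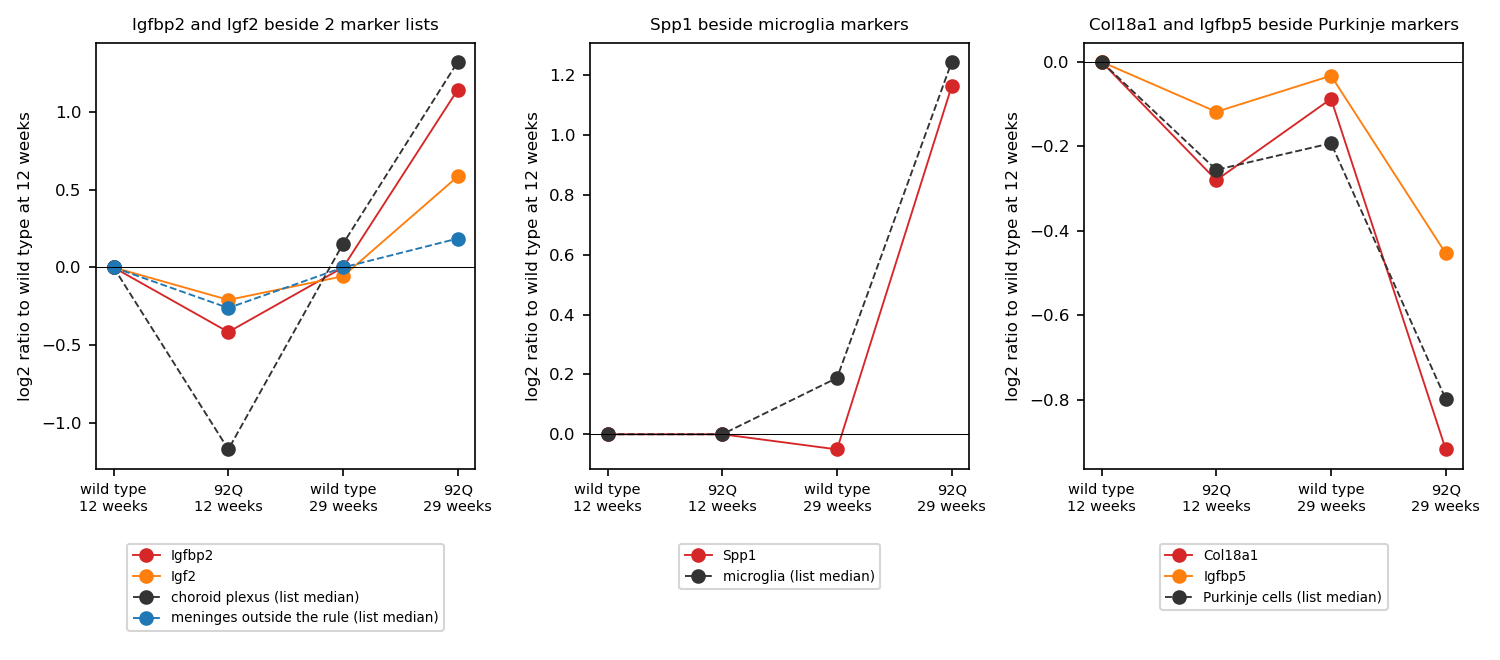
Log2 ratio of each condition to wild type at 12 weeks (y) in the 4 conditions (x) for members (solid) and for the median over a marker list (dashed), on y axes that differ between panels; lines only join the points of a gene or list and show no course in time, and each value rests on 1 deposited score per gene. Igfbp2, Igf2, choroid plexus and meningeal markers were at their minimum in the 12-week and at their maximum in the 29-week 92Q animals, Spp1 and microglia markers were high in 92Q at 29 weeks, and Col18a1, Igfbp5 and Purkinje cell markers were lowest there. Some choroid plexus, meningeal and microglia markers reached 10 in 92Q at 29 weeks alone, so they had to be highest there to have a row.

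The same question at 12 weeks gave small differences. No member was 1.5-fold higher, against 0.0783% of the 7660 genes compared, or 1.5-fold lower, against 0.170%. Igfbp2 alone passed 1.3-fold, in the lower direction (0.496% of all genes, and 0 members in the higher direction against 0.0914%), with a log2 ratio of -0.42 (rounding range -0.49 to -0.35). With a pseudocount of 5 it was -0.35, short of 1.3-fold. Igf2 had -0.21 and Col18a1 -0.28. The median over the 43 members was 0.00, with 37 of them, or 86.0%, within 1.1-fold, against 88.8% of all genes. The largest positive ratio, 0.17, was that of Itgav, at 8 in 92Q against 7 in wild type, and its rounding range starts at 0.00.

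The comparison named for this gene set was that of meningeal and collagen genes with perineuronal matrix genes. The first list held 6 names: Col18a1, Col4a3bp, Dcn, Igf2, Igfbp2 and Igfbp6. The second held Bcan, Hapln2, Hapln4 and Tnr. At 29 weeks the log2 ratios of 92Q to wild type ran from -0.83 to 1.14 in the first list and from -0.18 to 0.09 in the second. The medians were 0.06 and 0.00, because the first list held genes at both ends. With names starting with Col alone, Col18a1 and Col4a3bp, the difference of the medians was -0.42 in place of 0.06. Without Col4a3bp, chosen after seeing the data, it was 0.13. At 12 weeks the medians were -0.17 and 0.01, with ranges of -0.42 to 0.07 and -0.07 to 0.15. Neither list has enough members, nor any replicate, for the difference to be more than a description.

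Among the perineuronal genes, Bcan had scores of 89 and 94 in wild type and 92Q at 12 weeks and of 95 and 101 at 29 weeks. Both 92Q values were above the wild-type value of the same age, by log2 ratios of 0.08 and 0.09. Hapln4, a link protein that partners brevican in nets and at cerebellar synapses, was 84 and 81, then 85 and 75. It was the only one of the 4 to be lower in 92Q at 29 weeks (log2 ratio -0.18, rounding range -0.20 to -0.16). Hapln2, a link protein of the nodes of Ranvier, was 19 and 18, then 21 and 21. Tnr was 8 and 9, then 10 and 10, so its genotype ratio at 29 weeks was 0.00. The summed score of the 4 genes was 200 and 202 at 12 weeks and 211 and 207 at 29 weeks. None of the 4 reached 1.3-fold between genotypes at either age.

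Dcn, a small leucine-rich proteoglycan of collagen fibrils and a fibroblast gene, had 20, 21, 21 and 23. It did not share the low value of Igfbp2 and Igf2 in 92Q at 12 weeks. Sparc, a collagen-binding protein of glia and vessels, was 507 and 480 at 12 weeks and 489 in both genotypes at 29 weeks. Sparcl1, the synapse-organizing astrocyte protein hevin, was 890 and 870, then 903 and 923. The largest ratio of Sparc or Sparcl1 between genotypes was -0.08, that of Sparc at 12 weeks.

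**Figure D4:**
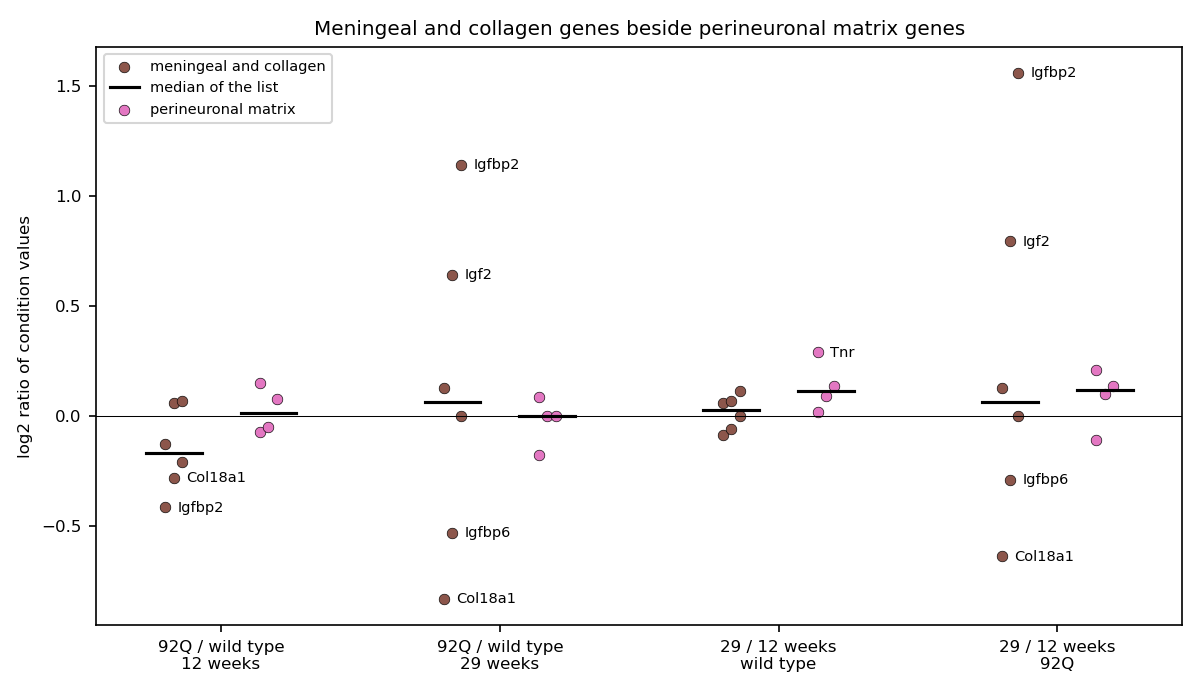
Log2 ratios of the 6 meningeal and collagen names (brown) and the 4 perineuronal matrix genes (pink) in the 4 comparisons, each point 1 gene and each black bar the median of its list, with no error bars since each gene has 1 score per condition. At 29 weeks and with age in 92Q the brown points reach from Col18a1 at the bottom to Igfbp2 at the top, while the pink points stay between -0.18 and 0.21.

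Other matrix genes outside the naming rule gave a wider view. Of 64 listed, 27 had a row. At 29 weeks 18 were higher in 92Q and 7 lower, or 66.7% and 25.9%, against 49.5% and 26.1% of all genes. Beyond rounding 13 were higher and 6 lower, or 48.1% and 22.2%, against 27.1% and 14.5% of all genes. The median log2 ratio was 0.08, and 2 were at least 1.3-fold higher, against 1.38% of all genes. These were the collagen-binding Prelp (16, 15, 17 and 24) and Pcolce (7, 6, 7 and 10), an enhancer of procollagen processing. Pcolce reached 10 in 92Q at 29 weeks alone, so it had to be highest there. At 12 weeks 13 were higher and 11 lower, or 48.1% and 40.7%, against 32.1% and 36.7% of all genes. Mgp, matrix Gla protein, was the only one past 1.3-fold, at 29 against 39, where 0.496% of all genes were at least 1.3-fold lower. Ptprz1, a receptor phosphatase whose secreted form binds tenascin-R, was 61, 65, 66 and 61, and the proteoglycan Cspg5 33, 32, 35 and 36. Fmod, Mgp, Bgn, Ogn and Pcolce stand on the meningeal marker list as well.

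Integrin genes differed little between genotypes. Itgb1, the beta chain shared by most matrix receptors, was 17, 16, 16 and 18. Its alpha partners for laminin, Itga3 and Itga7, were 16 in both genotypes and 14 in both genotypes at 29 weeks. Itgav, the alpha chain of the osteopontin receptors, was 7, 8, 9 and 10, Itgb5, one of its partners, 22, 21, 21 and 23, and Itgb8, a partner that activates TGF-beta, 10, 10, 12 and 13. The highest ratio of the class at 29 weeks was 0.16, that of Itgb1, where Spp1, an integrin ligand, had 1.22. Itgb1bp1 was 19, 18, 17 and 16, and it shares 366 exon bases with Asap2 on the other strand. In the integrin signalling list 15 of 19 genes had a row. At 29 weeks 1.60% of all genes were at least 1.3-fold lower in 92Q, and in this list 1 was past 1.3-fold between genotypes. This was Bcar1, the adaptor p130Cas, at 66 and 57 at 12 weeks and at 62 and 47 at 29 weeks (log2 ratio -0.39 at 29 weeks). The focal adhesion adaptor Pxn was 52 and 43 at 29 weeks (-0.27).

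The ADAM genes include active proteases and neuronal members without protease activity. Adam10, the main alpha-secretase of neurons, was 30, 31, 30 and 29, Adam9 was 12 throughout, and Adam15 was 27, 27, 27 and 29. Of the inactive members, which act as receptors, Adam22, the receptor of the secreted protein LGI1, was 45, 46, 46 and 46. Adam11 was 73 and 74 at 12 weeks and 68 and 62 at 29 weeks, and Adam23 was 46 and 47, then 48 and 41. The latter 2 had log2 ratios of -0.13 and -0.22 at 29 weeks. Adamts4, a protease that cuts brevican and related proteoglycans, was 12, 11, 11 and 12. Adamts10, which binds fibrillin, was 38 and 41 at 12 weeks and 34 and 28 at 29 weeks, a log2 ratio of 0.11 at the first age and of -0.27 at the second. No gene of the class reached 1.3-fold between genotypes.

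The inhibitors of metalloproteinases differed mainly between the ages, which the title numbers of the libraries separate as well. Timp2 was 49 in wild type and 48 in 92Q at 12 weeks, and 65 and 78 at 29 weeks. Timp3, which binds to the matrix, was 40 and 41, then 51 and 55. Both were higher at 29 weeks in each genotype. With age in wild type the log2 ratio was 0.40 for Timp2 (rounding range 0.38 to 0.43) and 0.34 for Timp3, the 46th and 64th highest of 7663 genes. In 92Q the age ratios were 0.69 and 0.42. Timp4, an astrocyte gene, went the other way, with 127 and 124 at 12 weeks and 104 and 112 at 29 weeks, and age ratios of -0.29 in wild type and -0.15 in 92Q. At 29 weeks the log2 ratios of 92Q to wild type were 0.26 for Timp2, 0.11 for Timp3 and 0.11 for Timp4, and 49.5% of all genes were higher in 92Q at that age. Timp3 and Timp4 lie inside the synapsin genes Syn3 and Syn2 on the other strand, and Timp4 shares 90 exon bases with Syn2, which had scores of 101, 102, 98 and 99.

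What differed with age over all members was then asked in each genotype. In wild type no member was 1.5-fold higher or lower at 29 than at 12 weeks (0.222% and 0.144% of 7663 genes), and Timp2 alone was past 1.3-fold, in the higher direction (0.666%, and 0 members in the lower direction against 0.783%). With a pseudocount of 5 the ratio of Timp2 was 0.37, short of 1.3-fold, and under quantile normalization Timp3 also passed, at 0.38. The median over the members was 0.00. The 4 perineuronal genes had a median log2 ratio of 0.12 with age in wild type. Bcan, Hapln2 and Tnr were higher beyond rounding, where 16.2% of all genes were, and Hapln4, at 84 and 85, was within it. Tnr was highest at 0.29, a gene at 8 and 10 whose rounding range runs from 0.14 to 0.44. In 92Q 4 members were at least 1.5-fold higher at 29 weeks, Igfbp2, Spp1, Igf2 and Timp2, against 0.978% of 7667 genes, and Col18a1 was 1.5-fold lower, against 0.483%. At 1.3-fold there were 6 higher (2.77% of all genes) and 2 lower (1.64%), adding Igfbp4, Timp3 and Adamts10. Igfbp2 had the highest age ratio of the members in 92Q, 1.56, and a ratio of 0.00 in wild type. The 29-week 92Q values enter this comparison and the genotype comparison at 29 weeks, so the results for Igfbp2, Igf2, Spp1 and Col18a1 are not separate findings. Adamts10 had an age ratio of -0.53 in 92Q and Igfbp4 one of 0.45, which a pseudocount of 5 brought to 0.34, short of 1.3-fold. The age ratio of Col18a1 in 92Q was -0.64, and with a pseudocount of 5 it was -0.47, short of 1.5-fold.

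Contactins are axonal adhesion molecules that pair with contactin-associated proteins. Cntn1 and Cntnap1, which form the paranodal junction between axon and myelin, were 86, 88, 88 and 96 and 79, 86, 78 and 76. Cntn2 and Cntnap2, which act beside the node at the juxtaparanode, were 51, 55, 56 and 61 and 18, 18, 21 and 22. Cntn6 was 24 and 25 at 12 weeks and 21 in both genotypes at 29 weeks. Cntn4 was 9, 9, 10 and 9 and Cntnap4 14, 14, 15 and 15. All 7 differed by at most 1.1-fold between genotypes at both ages. Of 15 names of partners and paranodal genes, with a synonym pair among them, 12 had a row, and none was past 1.3-fold. Nfasc, the glial and axonal partner of Cntn1, was 47, 50, 49 and 53, and Mag, a myelin adhesion protein, 96, 96, 95 and 118.

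The condition in which a gene stood apart was counted over all members. The 92Q value at 29 weeks was alone the highest of the 4 for 18 of 43 members (26.2% of all 7667 genes) and alone the lowest for 11 (17.1%). Among the 18, Itgav had to be highest there to have a row, and the share of all genes includes such genes too. Igf2, Igfbp2, Sparcl1 and Timp2, 4 of 43 members or 9.30%, had their lowest value in 92Q at 12 weeks and their highest in 92Q at 29 weeks, against 3.53% of all genes. Scores that differed by 2 or more units were beyond rounding. Between genotypes at 12 weeks 5 members were higher beyond rounding (11.3% of all genes) and 8 lower (18.7%), and at 29 weeks 16 were higher (27.1%) and 8 lower (14.5%). With age 14 were higher (16.2%) and 9 lower (29.0%) in wild type, and 20 higher (23.6%) and 13 lower (20.9%) in 92Q. The orders of the 4 conditions rest for most members on differences of a few units. Leaving out Igf2, Igfbp2, Spp1 and Col18a1, chosen after their values were seen, the summed score of the other 39 members was 2677 and 2644 at 12 weeks and 2690 and 2711 at 29 weeks. Sparc and Sparcl1 hold much of this sum. Of the 39, 33.3% were higher and 17.9% lower in 92Q beyond rounding at 29 weeks, against 27.1% and 14.5% of all genes.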

How the data were processed

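Cerebellar RNA of 12 libraries, 3 per condition, was sequenced after TruSeq preparation on an Illumina HiSeq instrument, per the labels' protocols. The submitters' processing notes name Bowtie 0.12.7, SAMtools 0.1.12a, Cuffdiff 1.3.0 and the build mm10, with no role or order. The authors deposited 1 normalized score for each gene in each condition, rounded to a whole number. How it was scaled and filtered, and on which annotation, is not given in the sources used here. Equal medians and closely similar sums were read as values normalized and rounded, not read counts, so no interval from depth was computed. The 3 libraries of a condition share 1 column, and 0 columns belonged to other samples.

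From 7684 rows, 17 with a number in place of a name were left out. For each gene the log2 ratio of 2 condition scores was computed with a pseudocount of 1 where either score reached 5, which understates ratios of low genes, and counted at 1.5-fold and 1.3-fold. Rounding ranges moved each score by 0.5. No test was made. Alternatives were other pseudocounts, minimum values, scalings, thresholds and list definitions. Ratios were checked on simulated data. Gene positions came from GENCODE M21, promoters from RefSeq. Members and lists were chosen with earlier results of these data known. Each member could be named; those past 1.3-fold in any comparison, the 3 with the highest mean score of each class, the perineuronal genes and the collagens were given in all 4 conditions, and up to 4 genes per other list were named by the size of their genotype ratio, with further ones as examples chosen after their values were seen. Python 3.11.15, pandas 2.3.3, NumPy 2.4.6 and matplotlib 3.10.9 were used.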

Additional observations from a re-analysis of the deposited data

Results flagged for a closer look

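For 6 of 43 members the 92Q score lay on opposite sides of wild type at the 2 ages, beyond rounding. The share of all genes that did so was not computed, so this count is not read as particular to the members. Of all genes, 18.7% were lower and 11.3% higher in 92Q beyond rounding at 12 weeks, and 14.5% and 27.1% at 29 weeks. The difference between the log2 ratios at 29 and at 12 weeks was 1.56 for Igfbp2, 0.85 for Igf2, 0.14 for Timp4 and 0.0643 for Sparcl1, all lower in 92Q at 12 weeks and higher at 29 weeks. It was -0.38 for Adamts10 and -0.16 for Cntnap1, which were higher at 12 weeks and lower at 29 weeks. None of these differences was tested, since each condition has 1 value.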

How the results depend on the processing

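The counts of members at 1.5-fold stayed within 1.5 times their value under pseudocounts of 0.1 and 5, minimum values of 1 and 10, the 3 scalings, and without Col4a3bp, Itgb1bp1 and Igflr1. Quantile normalization gave 5 members in place of 4 for the genotype comparison at 29 weeks, and a pseudocount of 5 gave 4 in place of 5 for age in 92Q. A threshold of 1.3-fold gave 1 in place of 0 for genotype at 12 weeks, 1 in place of 0 for age in wild type, and 8 in place of 5 for age in 92Q. The difference between the meningeal and collagen median and the perineuronal median moved beyond rounding with names starting with Col alone, to -0.42 from 0.06 for genotype at 29 weeks and to -0.44 from -0.06 for age in 92Q, by a list of 2 names. Without Col4a3bp, an alternative chosen after seeing the data, the latter was 0.01. Of 200 recomputed ratios of the 10 members past 1.3-fold in any comparison, 168 stayed within the rounding range, 32 left it and 0 of the called ones changed sign. Upper quartile scaling moved the median log2 ratio of all genes most, by 0.0324 for genotype at 12 weeks and 0.0319 for age in wild type. No paired analysis was possible because the columns combine the libraries of a condition, and for the same reason leaving out each replicate was not run. Depth is unknown, so rounding is the only error that could be computed, and members near 10 are the least certain.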

Other observations

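The opposite direction at the 2 ages that Igfbp2 showed was uncommon in the table. Of 7659 genes compared at both ages, 8 were at least 1.3-fold lower in 92Q at 12 weeks and at least 1.3-fold higher at 29 weeks, and 3 went the reverse way. The 8 were Igfbp2, the choroid plexus markers Ttr, Kcnj13, Clic6, Enpp2 and 1500015O10Rik, the meningeal marker Slc13a4 and DQ267102, which is on neither list, named after their values were seen. Kcnj13, Clic6, 1500015O10Rik and Slc13a4 reached 10 in 92Q at 29 weeks alone, so they had to be highest there to have a row. Enpp2 was 92 and 45 in wild type and 92Q at 12 weeks and 101 and 238 at 29 weeks. Kcnj13 was 7 and 2, then 7 and 19. With a pseudocount of 5, tried after seeing the data, 6 of the 8 remained, and Igfbp2 and Slc13a4 did not. Under the 3 scalings and a pseudocount of 0.1 there were 6 to 9 genes, Igfbp2 among them each time. Igfbp2 was, with the pseudocount of 1, the only member of the matrix and IGF set among genes that otherwise stood, with 1 exception, on the choroid plexus and meningeal lists. Those lists were chosen with earlier results of these data known, and the tissue source of the Igfbp2 score was not tested.

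Grb10, an adaptor that dampens IGF1 and insulin receptor signalling, was the only gene of the IGF and insulin signalling list past 1.3-fold with age. Of all genes, 0.666% in wild type and 2.77% in 92Q were at least 1.3-fold higher at 29 weeks. Its score was 12 and 13 in wild type and 92Q at 12 weeks and 16 and 19 at 29 weeks, with log2 age ratios of 0.39 in wild type and 0.51 in 92Q. Foxo1, a transcription factor that this pathway restrains, was 12 and 13, then 15 and 16.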
